A study of Caenorhabditis elegans with 2 samples.

Results

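The genes described here are the 70 nuclear protein-coding genes of Caenorhabditis elegans, of 19973 in the annotation, whose symbols mark them as translation factors or aminoacyl-tRNA synthetases. The 33 initiation factor genes have symbols starting eif-, ife-, iff- or ifg-, the 6 elongation factor genes start eef-, and the 31 synthetase genes have 1 letter followed by ars-1 or ars-2. They were set against chromatin immunoprecipitation and sequencing (ChIP-seq) peak lists of SNPC-3.4. Both samples belong to 1 group and are its biological replicates 1 and 2. They are whole young adult hermaphrodites of the transgenic strain YL497, in which a GFP-FLAG tag is fused stably to the C-terminus of T02C12.2, the sequence name of snpc-3.4. Chromatin was sonicated and precipitated with antibody to GFP. No untagged worms or other group were profiled in these samples, and because whole worms were used, the cells behind a peak cannot be told apart.

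A gene was counted as having a peak when a summit of the authors' thresholded list of 2101 regions lay within 500 bp of its annotated 5' end. Otherwise it was looked for in the pooled list of 30000 candidate regions, of which the thresholded regions are the highest. Signal is the authors' value per region and has no stated scale. The lists hold no read counts, so the depth is unknown, and signal serves to order regions within a list. Coordinates are on ce11, which is WBcel235.

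Translation starts when initiation factors bring the initiator tRNA and the small ribosomal subunit to the messenger RNA, goes on as elongation factors deliver charged tRNAs and move the ribosome, and depends on synthetases that load each tRNA with its amino acid. These genes are transcribed by RNA polymerase II. SNPC-3.4 is a worm homologue of a subunit of SNAPc, the complex that recruits RNA polymerases to small nuclear RNA genes. Many worm genes receive a spliced leader at their 5' end, and an annotated 5' end can then lie downstream of the start of transcription.

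The sequences around the summits of 6 members with high signal are shown because they bear on whether the members share a word at the summit. Each runs 5' to 3' on the strand of its gene, up to 60 bases to either side of the summit and cut back where an exon of a protein-coding gene begins. Capitals mark GCGAGACC, AAAGGCGC, AAACGCGC or GTACGGTA on either strand, 4 words that were earlier found at summits of these lists. The windows lie at chrV:10965658-10965718 (plus strand) for eef-1G, chrIII:6972058-6972178 (minus) for eef-1A.1, chrIV:390469-390559 (minus) for ears-2, chrII:14795125-14795245 (plus) for eif-3.B, chrII:11695285-11695405 (minus) for tars-1 and chrIII:8971713-8971833 (minus) for eif-3.D. The window of tars-1 lies in an intron of tars-1 that an intron of kel-1 overlaps, and the other 5 are intergenic.
eef-1G: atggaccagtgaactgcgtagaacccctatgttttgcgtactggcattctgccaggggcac
eef-1A.1: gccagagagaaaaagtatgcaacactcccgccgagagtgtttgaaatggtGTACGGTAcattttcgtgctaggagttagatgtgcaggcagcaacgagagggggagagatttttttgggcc
ears-2: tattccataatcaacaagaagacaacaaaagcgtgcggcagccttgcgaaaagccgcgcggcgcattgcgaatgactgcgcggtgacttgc
eif-3.B: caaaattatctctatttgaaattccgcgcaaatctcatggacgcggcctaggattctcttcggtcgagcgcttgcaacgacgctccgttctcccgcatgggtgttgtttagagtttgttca
tars-1: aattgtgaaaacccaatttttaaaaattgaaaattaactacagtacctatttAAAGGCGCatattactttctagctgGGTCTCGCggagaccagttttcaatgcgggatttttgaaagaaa
eif-3.D: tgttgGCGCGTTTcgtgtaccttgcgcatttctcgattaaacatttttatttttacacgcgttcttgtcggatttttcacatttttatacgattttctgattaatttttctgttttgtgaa
Capitals stand in 3 of these 6 sequences, and no 2 of the 3 carry the same set of words. The 6 are a selection cut to short windows, so they cannot show how often the members share a word. Within 100 bp of the summits of all 19 members with a peak, AAAGGCGC, AAACGCGC and GTACGGTA each stood at 3 members, as given below.

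Of the 70 members, 19 had a thresholded peak, a share of 27.1% (95% Wilson interval 18.1 to 38.5%), against 1406 of all 19973 protein-coding genes, or 7.04%. Intervals cover counting error over genes only, and no test was made, since the members were chosen with earlier results of these data known. Another 32 members had a candidate region below the threshold and 19 had none. A candidate or thresholded region was thus present at 51 members (72.9%), against 37.7% of all protein-coding genes. Role was taken from the symbol alone. By role, 3 of 6 elongation factor genes had a peak (Wilson interval 18.8 to 81.2%). So did 11 of 33 initiation factor genes (33.3%, 19.8 to 50.4%) and 5 of 31 synthetase genes (16.1%, 7.09 to 32.6%). The intervals of the 3 roles overlap one another, and that of the synthetase genes begins at 7.09%, next to the share of all genes. Among the 2101 highest regions of either replicate alone, 3 of 31 synthetase genes had a peak (9.68%), against 6.19% of all protein-coding genes in replicate 1 and 7.01% in replicate 2.

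**Figure D1:**
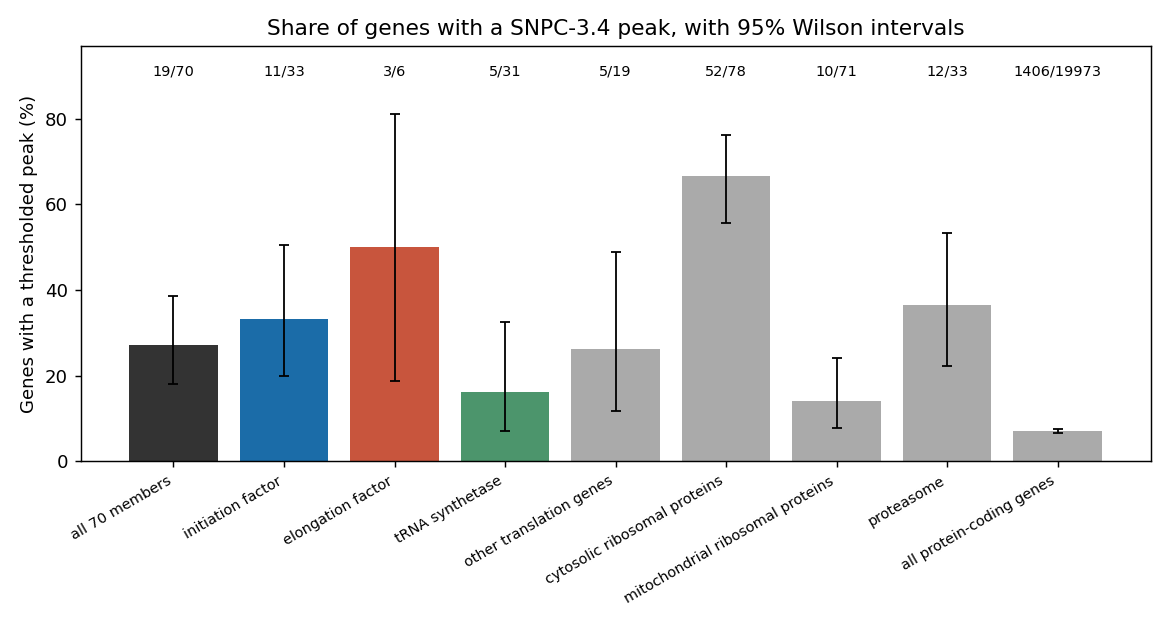
Share of genes (%) with a thresholded summit within 500 bp of the 5' end, for the 70 members, their 3 roles, 4 comparison lists and all protein-coding genes; lines are 95% Wilson intervals and the counts stand above each bar. The members' 27.1% lies above the 7.04% of all protein-coding genes and below the 66.7% of the cytosolic ribosomal protein genes.

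The first group, eIF3, is the many-subunit complex that holds the small ribosomal subunit open for initiation. Of the 11 genes with eif-3 symbols, which need not be all of its genes, 4 had a peak, namely eif-3.C, eif-3.B, eif-3.I and eif-3.D. The highest signal of all 70 members was at eif-3.C (chrI:9976426-9979662), with 77.2 in replicate 1, 121 in replicate 2 and 196 in the pooled list, where it held place 115. At eif-3.B (chrII:14795404-14798235) the signals were 39.4 in replicate 1, 71.9 in replicate 2 and 118 pooled. The other 2 were lower, eif-3.I with 26.1, 50.8 and 72.9 and eif-3.D with 17.5, 42.0 and 63.1 in the same order. In all 4 the signal value was higher in replicate 2, though eif-3.C held place 109 in replicate 1 and 119 in replicate 2. Their summits lay between 195 and 240 bp upstream of the 5' end. The summit at eif-3.D was nearer to the divergent gene R08D7.4, at 119 bp. Of the remaining 7 genes with eif-3 symbols, eif-3.E, eif-3.G, eif-3.H and eif-3.J had candidate regions below the threshold, and eif-3.F, eif-3.K and eif-3.L had none. For eif-3.L only 3.19% of the 31-base words around the 5' end occur once in the genome, and the mapping filter is not given in the sources used here.

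Factor eIF2 carries the initiator tRNA, and eIF2B is the exchange factor that reloads it with GTP. Among the 3 eIF2 genes only eif-2gamma, which encodes the GTP-binding subunit, had a peak, with 40.7 in replicate 1, 37.0 in replicate 2 and 79.7 pooled. It is 1 of the 2 members with a peak whose signal was higher in replicate 1. The eif-2alpha gene had a candidate region of 43.1 pooled signal, and eif-2beta had none. Of the 5 eIF2B genes, eif-2Bbeta had a peak, with 18.5 in replicate 1, 36.001 in replicate 2 and 56.5 pooled, and its summit lay 37 bp from the 5' end of the divergent gene Y47H9C.8 and 167 bp from its own. The genes eif-2Balpha, eif-2Bdelta and eif-2Bepsilon had candidate regions only, and eif-2Bgamma had none.

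Peaks were also present at 5 other genes counted as initiation factors by their symbols. Both genes of eIF5A, which helps the ribosome past stalls and is placed here by symbol and not by function, had one. At iff-1, known for its role in the germ line, the signal was 22.3 in replicate 1, 41.3 in replicate 2 and 57.6 pooled, and at iff-2 it was 23.4, 27.4 and 56.1. The iff-1 summit lay 372 bp inside the gene, in an intron, and the iff-2 summit 104 bp upstream. The gene of eIF6, which keeps the large ribosomal subunit from joining early, had 20.5, 44.4 and 68.1, with a summit 316 bp upstream of eif-6. At eif-1, whose product guards the choice of start codon, the signals were 18.7, 39.2 and 56.1, and its summit, 390 bp upstream, was 28 bp from the 5' end of the divergent gene vps-24. At eif-2A, a factor that can bring initiator tRNA without eIF2, they were 18.4, 42.2 and 55.9. The signal value of all 5 members was higher in replicate 2, though iff-2 held place 1750 in replicate 1 and 2955 in replicate 2. The related eif-2D had a candidate region of 22.2 pooled signal, and eif-1.A had none.

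No ife- or ifg- gene had a thresholded peak within 500 bp. The 5 ife- genes encode the cap-binding protein eIF4E, and ife-1, ife-2, ife-3 and ife-5 had pooled candidate signals between 18.3 and 37.2, while ife-4 had no candidate region. The single eIF4G gene, ifg-1, whose product is the scaffold that joins the cap-binding protein to the ribosome, had none within 500 bp. The gene of eIF4A3, a helicase of the exon junction complex, had a candidate region of 42.4. For 0 of 5 ife- genes the Wilson interval runs up to 43.4%, so these few genes set only a wide limit.

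All 3 elongation factor genes with a peak were among the 4 highest members. The gene eef-1G (chrV:10965719-10967922) encodes the gamma subunit of the exchange complex eEF1B, and it had 57.7 in replicate 1, 111 in replicate 2 and 164 pooled, with the summit 1 bp upstream of the 5' end. At eef-1A.1 (chrIII:6970026-6971712), which encodes the factor that delivers charged tRNA, the signals were 59.9 in replicate 1, 99.1 in replicate 2 and 159.5 pooled. At eef-2 (chrI:9163531-9166952), which encodes the translocase, they were 32.5, 111 and 136. These 3 genes lay at places 155, 167 and 228 of the pooled list, and the signal value of all 3 was higher in replicate 2. By place eef-1A.1 stood at 182 in replicate 1 and at 188 in replicate 2. The eef-1A.1 summit was 406 bp upstream of that gene and 135 bp from the 5' end of the divergent gene rfc-4, which encodes a subunit of the clamp loader of DNA replication. The second eEF1A gene, eef-1A.2 on the X chromosome, had only a candidate region of 20.7 at place 22398. The remaining eEF1B genes, eef-1B.1 and eef-1B.2, had pooled candidate signals of 50.1 and 36.5.

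**Figure D2:**
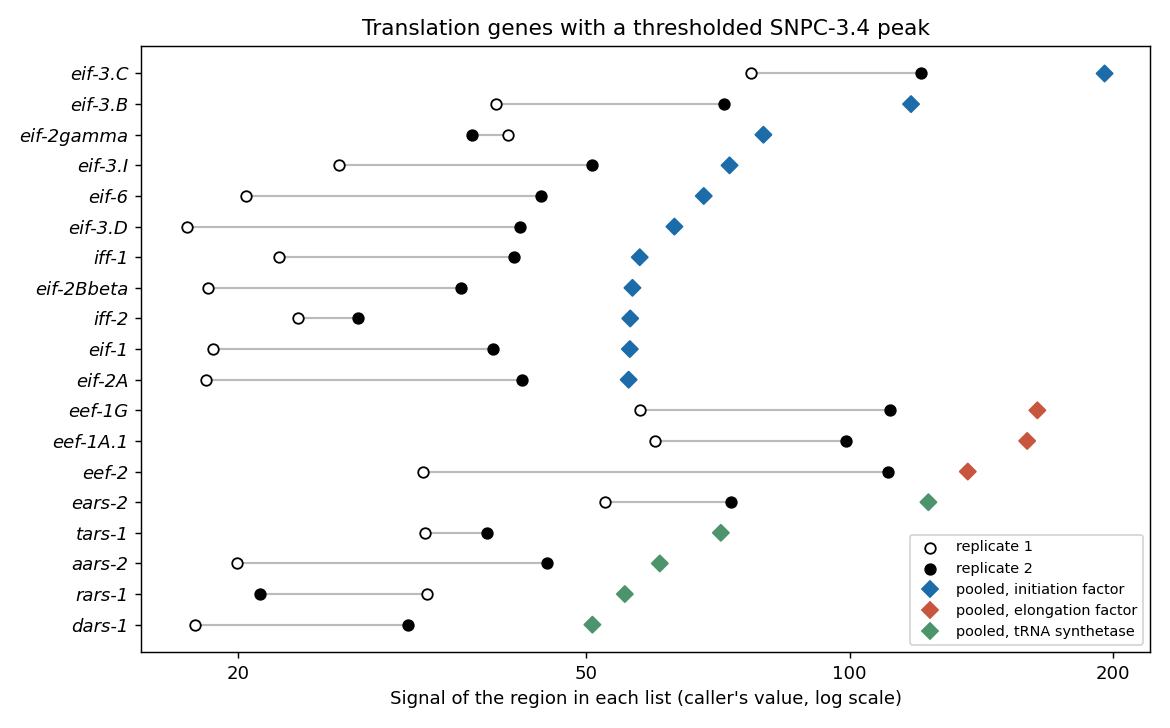
Signal of the 19 members with a thresholded peak, on a log axis, in replicate 1 (open circles), replicate 2 (filled circles) and the pooled list (diamonds coloured by role), ordered within each role by pooled signal. The 3 elongation factor genes lie between 136 and 164 in the pooled list. Replicate 2 is above replicate 1 in 17 of 19 genes, against 1212 of the 1361 protein-coding genes with a peak matched in both replicates.

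Synthetase genes with a peak were ears-2, tars-1, aars-2, rars-1 and dars-1, named for glutamate, threonine, alanine, arginine and aspartate. Of the 20 genes numbered 1, 3 had a peak, and of the 11 numbered 2, 2 had one. The highest was ears-2 (chrIV:388686-390468), with 52.55 in replicate 1, 73.3 in replicate 2 and 123 pooled and a summit 39 bp upstream. The others were lower, tars-1 with 32.7, 38.5 and 71.3, and aars-2 with 19.96, 45.1 and 60.7. The signal value of these 3 was higher in replicate 2. By place, ears-2 (270 against 366) and tars-1 (815 against 1521) stood higher in replicate 1, and aars-2 (2640 against 1115) in replicate 2. In the pooled list ears-2 was the synthetase gene nearest in signal to the 3 elongation factor genes with a peak. At rars-1 the signal was 32.9 in replicate 1, 21.2 in replicate 2 and 55.4 pooled. It was the other member whose signal value was higher in replicate 1, where it held place 810 against place 5621 in replicate 2. Its summit lay 170 bp inside the gene and was the only 1 of the 19 in a coding exon. At dars-1 the signals were 17.9, 31.3 and 50.8, and its summit was 2 bp from the 5' end of the divergent gene ctr-9 and 179 bp from its own.

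Candidate regions below the threshold were present at 15 synthetase genes, with vars-1, for valine, highest at 41.7. The 11 with none were ears-1, fars-1, fars-2, iars-1, iars-2, mars-1, pars-1, qars-1, sars-1, wars-1 and yars-1. These are 9 of the 20 genes numbered 1 and 2 of the 11 numbered 2. Of all 19973 protein-coding genes, 12437 had none. The RefSeq annotation also calls Y105E8A.20 mars-2, a symbol that the Ensembl annotation used here does not give. It had a candidate region of 19.4 at place 26423, and with it 19 of 71 genes would have a peak.

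The threshold passed between 2 members. At place 2100 of the 2101 thresholded regions stood dars-1 with 50.8, and the next member was eef-1B.1 with 50.1 at place 2158, a region that had 43.1 in replicate 2 and no matching summit in replicate 1. The next were eif-2Bdelta with 45.5 pooled and 32.3 in replicate 2, also with no match in replicate 1, and eif-3.E with 44.95 pooled, 8.98 in replicate 1 and 38.8 in replicate 2. All 3 were thus nearer the top in replicate 2. The median pooled signal of the 19 members with a peak was 68.1, against 73.0 over all 1406 protein-coding genes with one.

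**Figure D3:**
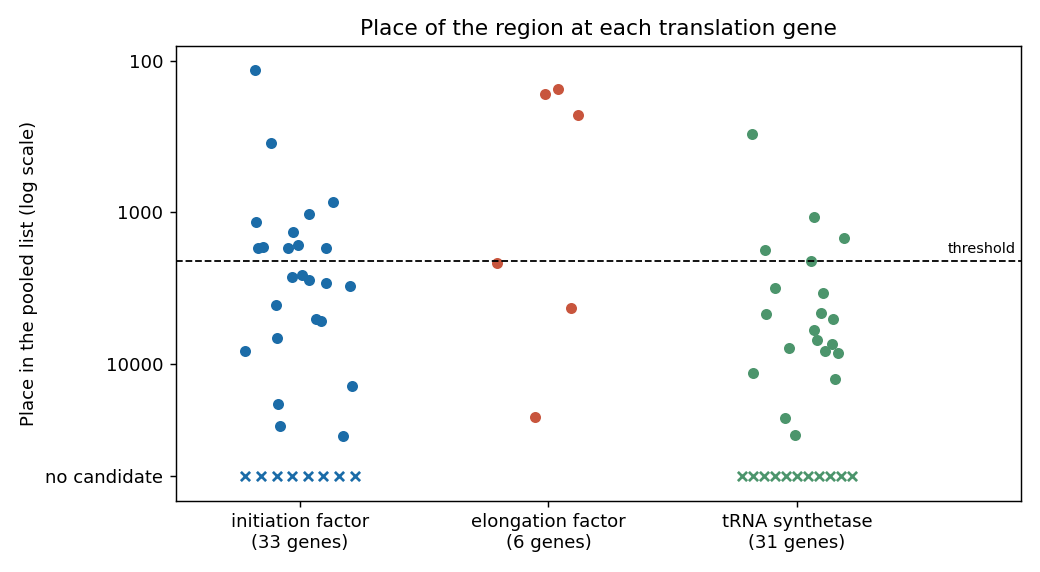
Place of the region at each of the 70 members in the pooled list of 30000 (log axis, place 1 at the top), by role; the dashed line is the threshold at place 2101 and crosses are the 19 members with no candidate region. Members run from place 115 to place 29781 without a gap at the threshold.

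In both replicates a summit within 150 bp matched that of the pooled list at all 19 members with a peak, and at 1361 of the 1406 protein-coding genes with one. The distance between the summits of replicates 1 and 2 was 10 bp in the median and at most 137 bp, at eif-1, and it was 25 bp or less at 15 of the 19. Over all protein-coding genes with a peak the median was 19 bp. Signal values were higher in replicate 2 at 17 of the 19 members and at 1212 of the 1361 genes. The lowest value among the 2101 highest regions was 21.8 in replicate 1 and 32.5 in replicate 2. A higher value in replicate 2 need therefore not be a higher place. Across the 19 members, log2 signals of the replicates had a Pearson r of 0.699 and a Spearman rho of 0.518, against 0.597 and 0.479 across the 1361 genes. These values describe genes of the same libraries, chosen by a pooled signal that both replicates feed. Among the 2101 highest regions of replicate 1 there was a summit at 15 members (21.4%), against 6.19% of all protein-coding genes. For replicate 2 it was 18 members (25.7%), against 7.01%. In both replicates it was 10 members (14.3%), against 4.17%.

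The summit lay upstream of the 5' end at 16 of 19 members (84.2%), against 86.3% of all protein-coding genes with a peak, and the median position was -174 bp in both sets. Among the members it was -195 bp at the 11 initiation factor genes (from -390 to 372 bp). It was -18 bp at the 3 elongation factor genes (from -406 to -1 bp) and -39 bp at the 5 synthetase genes (from -244 to 312 bp). Over the 14 members nearest to their summit it was -100 bp. By annotation 16 summits were intergenic, 2 were intronic (tars-1 and iff-1) and 1 was in a coding exon (rars-1). No member had a small RNA gene, here a tRNA, small nuclear RNA or small nucleolar RNA gene, beginning within 250 bp of its summit. Of all protein-coding genes with a peak 6.47% did, and 19 summits are too few to set the members apart from that share. Within 100 bp of each of the 19 summits, every 31-base word occurred once in the genome.

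**Figure D4:**
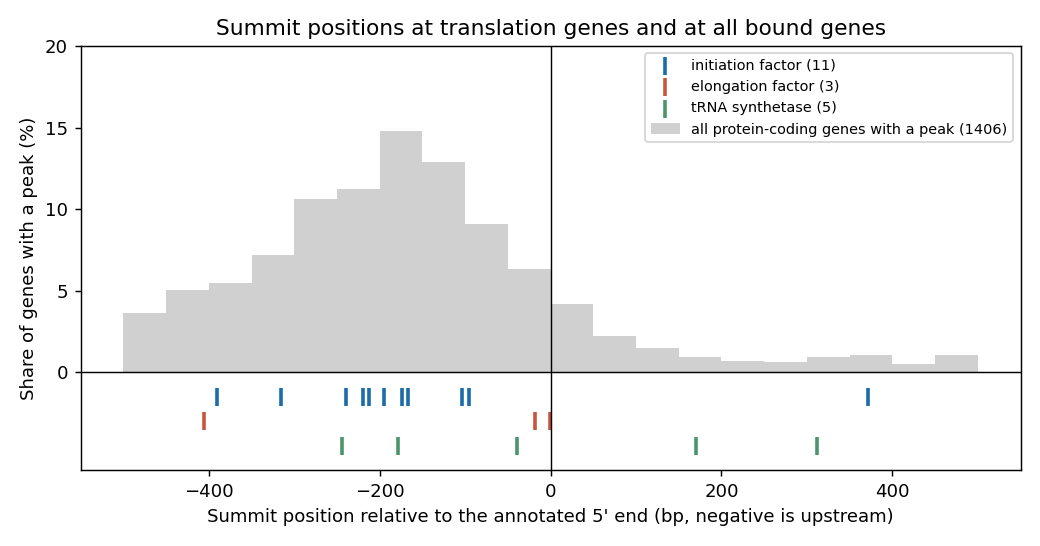
Position of the summit relative to the annotated 5' end (bp, negative is upstream), as coloured ticks for the 19 members by role and as grey bars for the share (%) of all 1406 protein-coding genes with a peak, in bins of 50 bp. Of the members' summits, 16 lie upstream of the 5' end, and the median of both sets is -174 bp.

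Neighbouring genes shared many of these regions. A divergent gene began within 1000 bp upstream of 31 members, and 13 of them had a peak (41.9%), against 6 of the 39 others (15.4%). Over all protein-coding genes the shares were 19.2% of 3539 with such a neighbour and 4.42% of 16434 without. At 14 of 19 members (73.7%) the member was the gene nearest to its summit, against 78.0% of all genes with a peak. The exceptions were eef-1A.1, eif-3.D, eif-2Bbeta, eif-1 and dars-1. At 5 more members a divergent gene also began within 500 bp of the summit, namely ctf-4 at eef-1G, clsp-1 at eef-2, uncp-18 at ears-2, abtm-1 at eif-3.I and pbs-2 at eif-6. The summit at ears-2 lay 39 bp from its own 5' end and 53 bp from that of uncp-18, and the summit at eif-6 lay 316 and 350 bp from those of eif-6 and pbs-2. For these 10 of 19 members (52.6%) the lists cannot tell to which of the paired genes a region belongs. A gene on the same strand ended within 500 bp upstream of 17 members, and 3 of these had a peak (17.6%), namely eif-3.C, eif-2gamma and rars-1, against 16 of the other 53 (30.2%). Of all protein-coding genes, 8.98% with such a neighbour and 6.61% without had a peak. The letters TTTCAG, the mark of a splice acceptor, ended at the 5' end of 22 members (31.4%), and 5 of these had a peak (22.7%). It did so at 12.3% of all protein-coding genes, of which 14.4% had a peak.

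By chromosome, 7 of 21 members on chromosome I had a peak, 5 of 16 on II, 5 of 12 on III, 1 of 10 on IV, 1 of 8 on V and 0 of 3 on X. Of all protein-coding genes, 11.3% had one on I, 7.25% on II, 12.0% on III, 7.65% on IV, 4.69% on V and 1.03% on X. The 2 members with a peak on IV and V, ears-2 and eef-1G, were among the 5 highest.

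At 10 of the 19 summits, eef-1G and eif-3.B of the sequences shown above among them, none of the 4 words marked there was found. No test was made of the shares of the other summits. Each word was searched on both strands within 100 bp of the summit. AAAGGCGC stood at 3 of 19 members (15.8%; ears-2, tars-1 and eif-2gamma), against 10.5% of the summits of all protein-coding genes with a peak and 0.794% of genome windows of the same 201 bases. At ears-2 its centre lies 55.5 bp from the summit, outside the window shown. AAACGCGC stood at 3 (15.8%; eif-3.C, eif-2Bbeta and eif-3.D), against 7.54% and 0.43%. GTACGGTA stood at 3 (15.8%; eef-2, eif-3.I and eef-1A.1), against 6.97% and 0.612%, and its centre was 4.5 bp from the summit at eef-2, 6.5 bp at eef-1A.1 and 15.5 bp at eif-3.I. GCGAGACC stood at tars-1 alone (5.26%), against 10.8% and 0.593%. At tars-1, the only member with more than 1 of these 4 words, they do not overlap. GTTCGA, part of the internal B box of tRNA genes, stood at dars-1 alone (5.26%), against 11.0% and 7.4%, and TATAAA at 4 members (21.1%), against 17.1% and 21.2%. A match is a description of the letters and not a binding site.

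Comparison lists give the range in which the members fall. Of other translation genes, 5 of 19 had a peak (26.3%), led by the release factor gene erfa-3 with 33.0 in replicate 1, 87.8 in replicate 2 and 123 pooled. The gene fars-3, for a subunit of the phenylalanine synthetase outside the naming rule, had 51.9, 33.2 and 78.0, while fars-1 had no candidate region. Of 3 initiation factor genes with symbols outside the rule, a list added after the data were seen, inf-1 (eIF4A) had a peak of 53.4, and egl-45 and cif-1 had candidate regions of 31.3 and 26.3. Cytosolic ribosomal protein genes had a peak in 52 of 78 (66.7%, interval 55.6 to 76.1%), above the interval of the members, with a median pooled signal of 98.3. Mitochondrial ribosomal protein genes had one in 10 of 71 (14.1%, 7.83 to 24.0%) and proteasome genes in 12 of 33 (36.4%, 22.2 to 53.4%). Both intervals overlap that of the members.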

How the data were processed

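The ChIP-seq lists cover replicates 1 and 2 of 1 group, on ce11. The authors deposited 30000 candidate regions per replicate, 30000 for the pooled replicates and 2101 thresholded regions, the optimal set by irreproducible discovery rate per the deposited notes. The signal that the authors give per region has no stated scale. Which aligner, peak caller and mapping filter made the lists is not given in the sources used here, and the control was not analysed here. The thresholded list was checked to be exactly the 2101 highest regions of the pooled list. Replicates feed the pooled list and are not independent of it.

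Ensembl release 115 gave the genes and 5' ends, RefSeq gave symbols for 46881 of the 46926 genes and the WBcel235 sequence. Sequences are shown for the 6 members of highest signal outside chromosome I. A summit is the region's start plus the authors' offset. The nearest summit within 500 bp was taken, and replicate summits were matched within 150 bp. Without read counts the depth is unknown. Finding of summits was tested on simulated data. Alternatives were windows of 250 and 1000 bp, other 5' ends, the 1000 highest regions, single replicates, small RNA summits left out and the nearest gene only. Of 23 other translation genes listed, eefk-1, etf-1, selb-1 and eprs-1 were not matched. Members and lists were chosen with earlier results of these data known. Named are every member with a peak, the 3 highest below the threshold and every member with no candidate region. Others were named after their values were seen, to fill out complexes and lists. The tools were matplotlib 3.10.9, SciPy 1.17.1, pandas 2.3.3, NumPy 2.4.6 and Python 3.11.15.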

Additional observations from a re-analysis of the deposited data

How the results depend on the processing

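Of 50 recomputed values, 41 stayed within 1.5 times the reported count or within the spread between replicates, 9 moved and 0 changed sign. Counts and signals cannot change sign, so only the median position could have. No member with a peak had a small RNA gene near its summit, so leaving such summits out could not alter the members' values. In the 1000 highest regions 7 of the 70 members had a peak, against 683 of the 19973 protein-coding genes (3.42%). Of the 7 members, 3 were initiation factor genes (9.09% of 33) and 1 was a synthetase gene (3.23% of 31). The synthetase share was thus no higher there than that of all protein-coding genes, though it rests on 1 gene. The other 3 of the 7 were elongation factor genes, of 6 in all, and they were the same 3 that had a thresholded peak. Within 250 bp the count over all protein-coding genes was 898, and 14 members kept their peak, without eef-1A.1, eif-1, eif-6, iff-1 and tars-1. Within 1000 bp eif-2Bgamma, ifg-1 and qars-1 were added. With any transcript's 5' end the median position was -179 bp, and with only the nearest gene it was -100 bp, over 14 members.

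Leaving out a replicate gave 15 to 18 members, 9 to 11 initiation factor genes, 3 to 4 elongation factor genes, 3 to 3 synthetase genes (5 with both replicates) and 1237 to 1401 of all protein-coding genes. Without replicate 1, 16 of the 19 members were kept, dars-1, iff-2 and rars-1 were lost and eef-1B.1 and eif-3.E gained. Without replicate 2, 12 were kept, aars-2, dars-1, eif-1, eif-2A, eif-2Bbeta, eif-3.D and eif-6 were lost, and eif-4A3, ife-1 and ife-3 were gained. No paired analysis was possible because there was 1 group and no test. Signal has no stated scale and depth is unknown, so a member with no candidate region is known only to lie outside the 30000 listed regions.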

Other observations

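Of the 32 members below the threshold, 17 had a matching summit in both replicates, with a median distance of 59 bp between the replicate summits, against 10 bp at the 19 members with a peak. Across these 17 the log2 signals of the replicates had a Pearson r of -0.287 and a Spearman rho of -0.265, given as a description of genes from the same libraries within a narrow range of signal.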
